A study of Mus musculus with 2 samples.

Results

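Cytosolic ribosomal protein genes are the 86 genes, of 32285 in the deposited gene tables, whose symbols start with Rpl or Rps and a number or are Rplp0, Rplp1, Rplp2 or Rpsa; symbols with -ps and the Rps6k kinases were left out. They comprise 52 genes named for the large and 34 named for the small subunit. Of these, 8 are not core subunits by name: the paralogs Rpl3l, Rpl7l1, Rpl10l, Rpl22l1, Rpl36al, Rpl39l and Rps27l, and Rps19bp1, which encodes a binding protein of the Rps19 product. With at least 50 UMIs (unique molecular identifiers, 1 per captured RNA molecule) over both libraries, 83 members entered the comparison of single genes. Rpl3l and Rpl10l had 0 UMIs in both libraries, and Rpl39l had 21 UMIs in the WT-host library and 0 in the other.

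The series holds 2 single-cell libraries made with the 10x Chromium 3' kit (v3.1), 1 for each host genotype. CD4 T cells were taken on day 14 from lungs of wild-type mice that had been sensitized with house dust mite extract on day 0 and days 7 to 11, labelled with Cell Trace Violet, a dye that is diluted at each division, and transferred. The hosts were C57BL/6 (WT) in one group and MARCH1-/- in the other, so the T cells were wild type in both; MARCH1 is a membrane-bound ubiquitin ligase that acts on MHC class II in antigen-presenting cells. Both kinds of host were challenged with the same extract, and the dye-poor donor cells, which had divided, were recovered from host lungs by sorting at day 4 after the challenge. The number of mice behind each library is not given in the labels, and host sex and age are not given either.

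Ribosomal proteins are the protein part of the cytosolic ribosome, which joins amino acids on an mRNA template. Their mRNAs are short, abundant and, with those of some elongation factors, begin with a cytosine followed by pyrimidines (a 5' terminal oligopyrimidine, or TOP, sequence), through which mTOR signalling controls their translation. T cells raise ribosome production when they leave rest and begin to divide.

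The sequences around the start sites of 6 members are given here. They are the 3 lowest and the 3 highest members in the host comparison described below, ranked by the bound of the counting interval nearer to no change, among those with a RefSeq window. Each line gives 40 bases before and 20 bases from the RefSeq start (build GRCm38.p6), so the last 20 letters are the beginning of the first exon, and the pyrimidine run of at least 5 bases that holds the start or lies nearest to it is in capitals.
Rpl35 (chr2:39005112-39005171, minus strand): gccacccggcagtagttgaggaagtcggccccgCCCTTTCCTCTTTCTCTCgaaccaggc
Rpl38 (chr11:114668540-114668599, plus strand): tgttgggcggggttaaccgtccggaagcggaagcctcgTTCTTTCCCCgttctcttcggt
Rps27 (chr3:90213629-90213688, minus strand): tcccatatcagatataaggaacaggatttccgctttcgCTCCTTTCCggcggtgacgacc
Rps27rt (chr9:114982720-114982779, minus strand): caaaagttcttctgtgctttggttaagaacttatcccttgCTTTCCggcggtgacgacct
Rps2 (chr17:24720023-24720082, plus strand): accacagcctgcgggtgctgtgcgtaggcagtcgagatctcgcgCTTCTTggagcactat
Rplp0 (chr5:115559427-115559486, plus strand): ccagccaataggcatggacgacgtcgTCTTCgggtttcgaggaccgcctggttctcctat
The run spans the annotated start in Rpl35, Rpl38 and Rps27 and begins at it in Rps27rt, where it is 6 bases long. In Rps2 the nearest run of at least 5 bases lies after the annotated start and in Rplp0 before it, 6 and 5 bases long. The table of RefSeq windows held 66 of the 86 members. For 26 of these the RefSeq start lay within 10 bases of the GENCODE start of the principal transcript. The 2 starts were 493 bases apart for Rpl35, 47 for Rps2, 32 for Rpl38 and 3 for Rps27. They were the same for Rps27rt and Rplp0. Where the 2 starts differ, the place of a run relative to the start depends on the annotation used.

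Among the 66 member windows of 300 bases (250 before and 50 from the start), 65.2% held CGGAAG, the core bound by ETS factors, on either strand, against 20.2% of the 20196 other windows. The sequence CTTTCC was in 53.0% of member windows and 26.4% of the others, and the GC box GGGCGG was in 60.6% and 43.5%. The TATA sequence TATAAA was in 9.09% of member windows and 13.2% of the others. A cytosine at the annotated start followed by at least 4 pyrimidines was present in 19.7% of member windows and 2.30% of the others. These are matches of letters and describe the windows only.

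Called cells numbered 352 from WT hosts (median 6086.5 UMIs) and 156 from MARCH1-/- hosts (median 8017 UMIs), out of library totals of 3753437 and 1934068 UMIs over all barcodes. The 2 libraries shared 0 cell barcodes. All 12 CD4 T cell markers were detected in both libraries (summed level 4850 and 6267 counts scaled to 1000000 UMIs, CPM). The 4 natural killer cell markers and Cd8a were at 0 in both. The other CD8 T cell marker, Cd8b1, was at 11.7 CPM in the WT-host library and 10.2 CPM in the other. B cell markers summed to 22.2 and 104 CPM, with 3 of 6 detected in each library and Ms4a1 and Pax5 among those at 0. Macrophage and monocyte markers summed to 1.56 and 6.35 CPM. March1 itself had 0 UMIs in the donor cells of either library, and since the donors were wild type it is no check of the host labels. With 1 library per group, host genotype and library preparation cannot be told apart, no test is possible, and every interval below covers counting error only; it leaves out variation between cells, mice and preparations.

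Ribosomal protein mRNAs made up a smaller share of the RNA of donor cells from MARCH1-/- hosts. They supplied 712570 of the UMIs in cells from WT hosts, or 27.7% (95% exact binomial interval 27.7 to 27.8), and 356259 in cells from MARCH1-/- hosts, or 22.6% (22.5 to 22.7). The log2 ratio of MARCH1-/- host over WT host was -0.29 (-0.30 to -0.29). Large subunit genes went from 15.6% to 12.4% of UMIs (log2 ratio -0.33) and small subunit genes from 12.1% to 10.2% (log2 ratio -0.24). The ratio of large to small subunit UMIs was 1.29 in the WT-host library and 1.21 in the other, a log2 difference of -0.09 (-0.10 to -0.08).

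The members did not move as a block. Of the 83 compared, 43 were lower by at least 1.2-fold in the MARCH1-/- host library, where 18% of all 6762 genes with at least 50 UMIs were, and 23 were higher by at least 1.2-fold, where 49.1% of all genes were. The other 17 lay within 1.2-fold. The median log2 ratio of members was -0.32, and that of all genes was 0.25, so the CPM scale itself has most genes slightly above no change. Against the ribosomal protein sum instead of the total, 25 members were lower and 31 higher by at least 1.2-fold, beside 8.86% and 70% of all genes on that scale. Single log2 ratios ran from -2.33 to 2.28.

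**Figure D1:**
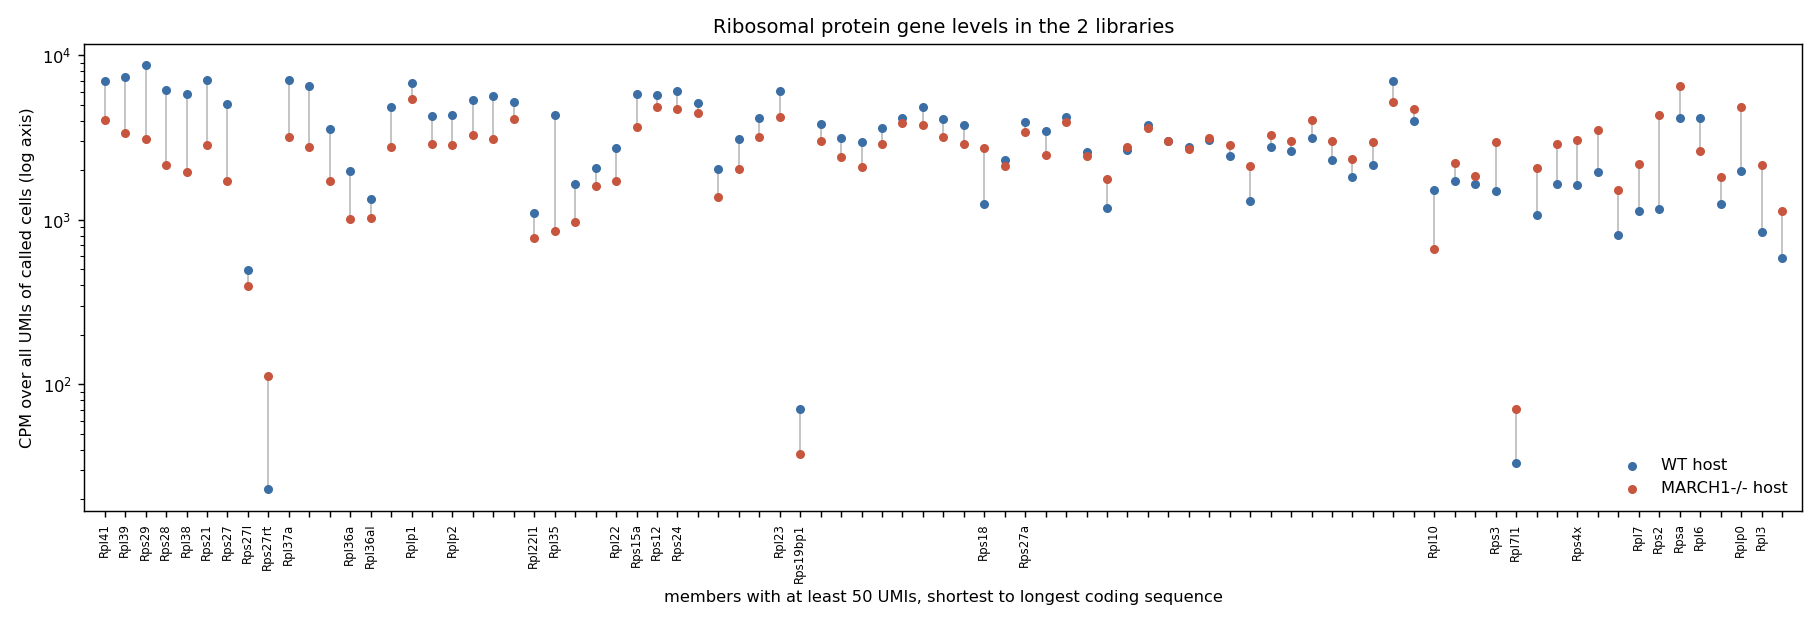
CPM (log axis) of the 83 members with at least 50 UMIs in the WT-host library (blue) and the MARCH1-/- host library (red), ordered from the shortest to the longest coding sequence with some symbols printed, with a grey line joining the 2 values of a gene. Blue points lie above red at the left, among short genes, and mostly below red at the right, among long genes; Rps27rt at the left and Rpl6 and Rpl10 at the right go the other way.

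The lowest ratios belonged mostly to genes of very small proteins. Rpl35, which encodes a large subunit protein near the exit of the peptide tunnel, had 4334 CPM in the WT-host library and 859 CPM after transfer into MARCH1-/- hosts. Its log2 ratio was -2.33 (-2.42 to -2.25). Rpl38, a large subunit gene known for its part in translation of Hox mRNAs, had 5811 and 1962 CPM, a log2 ratio of -1.57 (-1.62 to -1.51). Rps29, a zinc-binding small subunit gene and the member with the highest CPM in the WT-host library, had 8692 and 3076 CPM, a log2 ratio of -1.50 (-1.54 to -1.45). In each of these genes the levels of the 2 libraries were far outside each other's counting intervals. Rps27, another zinc-binding small subunit gene, had 5039 and 1719 CPM and a log2 ratio of -1.55. Rps28 had 6132 and 2153 CPM, and Rps21 had 7071 and 2852 CPM. Their log2 ratios were -1.51 and -1.31, so the 4 small subunit genes stood close together.

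The highest ratios belonged mostly to genes of larger proteins. Rps2, which encodes a small subunit protein at the entry of the mRNA channel, had 1170 CPM in the WT-host library and 4356 CPM in the other, a log2 ratio of 1.90 (1.83 to 1.96). Rpl3, whose product reaches toward the peptidyl transferase centre, had 845 and 2165 CPM, a log2 ratio of 1.36 (1.28 to 1.44). Both genes were higher in the MARCH1-/- host library while the sum of the members was lower. Rps18, in the head of the small subunit and with 456 coding bases near the members' median, had 1249 and 2719 CPM (log2 ratio 1.12), and Rps3, which also lines the mRNA entry, had 1485 and 2977 CPM (log2 ratio 1.004). A short gene among them was the retrogene Rps27rt, with 59 and 176 UMIs, or 22.9 and 112 CPM, and a log2 ratio of 2.28 (1.85 to 2.73). Its 50-base stretches near the 3' end are shared with Rps27 to 88.5%, and the 2 genes summed had a log2 ratio of -1.47. Thinned to 1000 UMIs a cell, Rps27rt had a log2 ratio of 3.38.

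Genes of 1 ribosomal structure differed in the same way. In the stalk, which recruits elongation factors, Rplp0 had 1985 CPM in the WT-host library and 4812 CPM in the other (log2 ratio 1.28, 1.23 to 1.33). Its smaller partners were lower: Rplp1 had 6777 and 5414 CPM (log2 ratio -0.32), and Rplp2 had 4305 and 2863 CPM (log2 ratio -0.59). On the CPM scale the stalk base and its partners thus fell on opposite sides of no change. Against the ribosomal protein sum, Rplp2 was at -0.29 (-0.35 to -0.24) and Rplp1 at -0.03 (-0.07 to 0.01), which spans no change. The ratio of Rplp1 turned positive when the median of other genes of similar transcript length was subtracted. Rpsa, the small subunit gene also known as a laminin receptor, had 4157 and 6525 CPM, a log2 ratio of 0.65. Rps27a, whose product is made as a fusion with ubiquitin, had 3931 and 3407 CPM, a log2 ratio of -0.21, which is within 1.2-fold.

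Ratios followed the length of the coding sequence. Over the 83 members, Spearman's correlation of the log2 ratio with coding length was 0.77 (Pearson 0.67 with log2 length); it was 0.81 over 49 large and 0.69 over 34 small subunit genes. Length of the whole principal transcript gave 0.47, and GC content gave -0.00. Some short members have a long annotated principal transcript, such as Rps15a (390 coding bases, 5179 in all) and Rps20 (357 and 3706). Which transcripts the cells used was not measured, so 0.77 and 0.47 do not rank coding against transcript length. The annotated transcript also sets the transcript-length classes used below. All points share the same 2 libraries, and the relation was found in these data and has no p-value. The 72 members sharing under 20% of their 3' sequence with another gene gave 0.85.

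Divided at 450 coding bases, close to the members' median of 453, the genes fell into 2 sets. The 42 shorter genes took 17.7% of all UMIs in cells from WT hosts and 10.6% in cells from MARCH1-/- hosts, a log2 ratio of -0.74 (-0.74 to -0.73). The 44 longer genes took 10.0% and 12.0%, a log2 ratio of 0.26 (0.25 to 0.27). Of the 41 shorter genes compared, 37 were lower by at least 1.2-fold and 1, Rps27rt, was higher; of the 42 longer genes, 22 were higher and 6 lower. Of all genes 18% were lower and 49.1% higher, so the share of longer members that were higher is near that of all genes. UMIs of the shorter set were 1.77 times those of the longer set in the WT-host library and 0.886 times in the other.

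In finer classes the summed log2 ratio was -1.25 under 300 coding bases, -0.52 from 300 to 450, 0.03 from 450 to 600 and 0.49 from 600 bases on. Long members that were lower included Rpl10 and Rpl6. Rpl10, added late in assembly of the large subunit, had 1508 and 661 CPM (log2 ratio -1.19). Rpl6 had 4146 and 2615 CPM (log2 ratio -0.67). Both genes have more than 600 coding bases and stood apart from their length class, whose median was 0.81. Rpl41, with the shortest coding sequence at 75 bases, had 6937 and 4047 CPM (log2 ratio -0.78), less far down than the median of -1.22 for members under 300 bases.

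**Figure D2:**
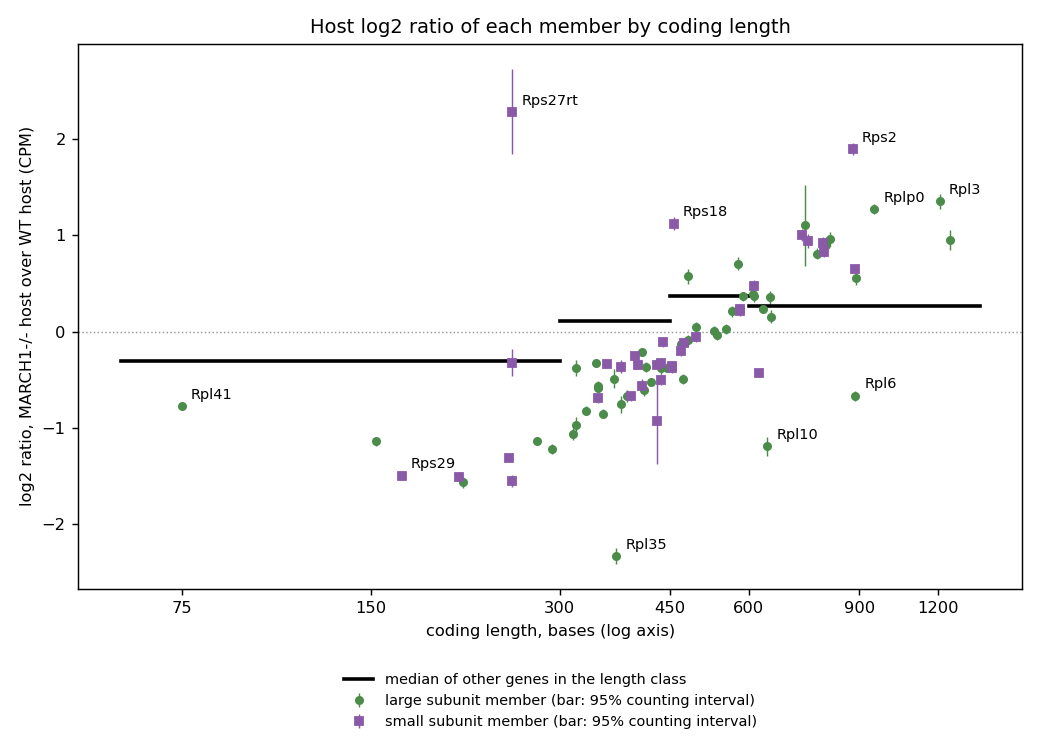
Log2 ratio of MARCH1-/- host over WT host for each of the 83 members (green circles, large subunit; purple squares, small subunit; bars, 95% counting intervals) against coding length in bases on a log axis; black lines are the medians of genes that are not members in 4 length classes. Members go from about -1.5 near 200 bases to about 1 above 700 bases, and Rps27rt, Rpl35, Rpl10 and Rpl6 lie away from the rest.

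Genes outside the ribosome showed differences by length too. Among the 186 other genes with under 300 coding bases the median log2 ratio was -0.30, and it was 0.11 in 414 genes of 300 to 450 bases, 0.37 in 490 genes of 450 to 600 bases and 0.27 in 5460 longer genes. By transcript length, 127 other genes under 600 bases had a median of -0.65, 200 genes of 600 to 800 bases 0.02, and 246 genes of 800 to 1000 bases 0.38. It was 0.48 in 735 genes of 1000 to 1500 bases, 0.38 in 1570 genes of 1500 to 2500 bases and 0.19 in 3784 longer genes. Spearman's correlation over the 573 other genes with transcripts under 1000 bases was 0.44, and over 6089 longer ones it was -0.20. With the median of other genes in the same coding-length class subtracted, 53 members were lower and 17 higher by at least 1.2-fold, beside 31.2% and 29.3% of all genes, and the median member stood at -0.46. With the transcript-length classes instead, 37 were lower and 29 higher, beside 30.3% and 29.5% of all genes. The part of library preparation in the length relation cannot be told apart from that of the host.

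The lower share of the shorter members was also present in RNA outside the called cells, while the higher share of the longer members was not. In barcodes with under 100 UMIs, which hold mostly free RNA, members made up 30.7% of UMIs in the WT-host library and 20.97% in the other (log2 ratio -0.55). The shorter members took 20.01% and 10.2% of these UMIs, and the longer members 10.7% and 10.8%. Member log2 ratios in these barcodes correlated with coding length at 0.81 (Spearman, 83 genes) and with the ratios in cells at 0.97. Free RNA comes in part from the same cells, so these are not separate samples. In barcodes over the mitochondrial limit, 72 and 25 in number, members made up 6.10% and 3.77%. The shorter members took 3.65% and 1.61% of UMIs there, and the longer members 2.44% and 2.17%.

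The difference was visible in single cells. Members made up a median of 26.4% of a cell's UMIs in the WT-host library, with a range of 1.88% to 54.3%. In the MARCH1-/- host library the median was 22.2%, with a range of 8.13% to 34.6%, and 31 of 156 cells lay above the WT-host median. The share of ribosomal protein UMIs that came from the shorter members separated the libraries further. The division into shorter and longer members was chosen after the host ratios of these same cells were seen. The separation was thus built into that choice and is no added support. The short-member share had a median of 63.9% (46.2% to 91.7%) in cells from WT hosts and 47.1% (41.5% to 55.6%) in cells from MARCH1-/- hosts. Of the 156 cells from MARCH1-/- hosts 0 lay above the WT-host median, and 2 of 352 cells from WT hosts lay below the MARCH1-/- host median.

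Depth moved with the ribosomal protein share in both libraries and, in the other direction, with the short-member share in the MARCH1-/- host library. Spearman's correlation of a cell's ribosomal protein share with its UMIs was 0.31 over 352 cells and 0.33 over 156 cells. The short-member share correlated with UMIs at -0.05 in the first and -0.28 in the second. Cells from MARCH1-/- hosts were deeper, and their members' share was lower within each depth class. Up to 4801 UMIs the summed share was 24.9% for WT hosts and 18.1% for MARCH1-/- hosts, in the middle class 26.6% and 21.9%, and in the deepest class 29.2% and 23.4%. With every cell thinned to 1000 UMIs, which left out 11 cells from WT hosts and 0 from MARCH1-/- hosts, the log2 ratio of the members' share was -0.32.

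**Figure D3:**
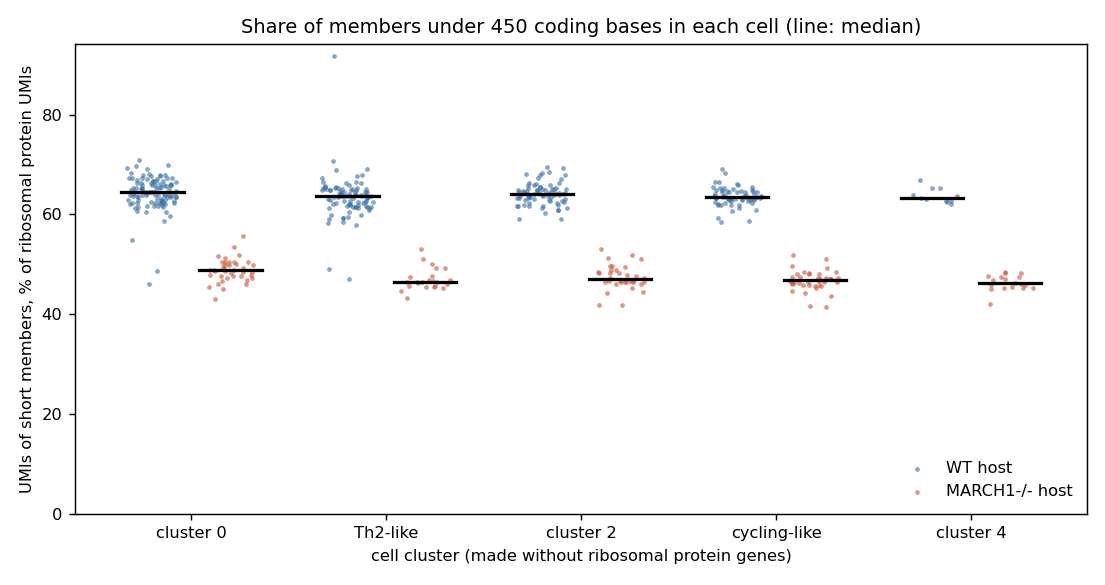
Share of each cell's ribosomal protein UMIs (percent, y axis) from members under 450 coding bases, by cell cluster (x axis) and library (blue, WT host; red, MARCH1-/- host); each point is a cell and each black line a median. The blue points center near 64% and the red ones near 47% in all 5 clusters, with a few blue points down among the red ones.

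Cells fell into 5 clusters when grouped without the members and the mitochondrially encoded genes. The clusters held 106, 93, 75, 67 and 11 cells from WT hosts and 39, 23, 34, 42 and 18 from MARCH1-/- hosts. Markers named 2 of them. One was Th2-like (led by Calca, Il13 and Il5, cytokine and neuropeptide genes of allergic type 2 helper cells) and one was cycling-like (led by histone genes, Pclaf and Top2a). Cluster 0 was led by Ccl1, Nrgn, Sdc4 and Il17a, cluster 2 by Ccl5, Ly6c2, Klrk1 and Tcf7, and cluster 4 by Ltb4r1 and, further down, Areg; these stayed without a cell type name.

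The host difference ran through every cluster. Members made up 24.97% of UMIs in cluster 0 of the WT-host library and 18.6% in that of the other (log2 ratio -0.42). The Th2-like cells had 26.3% and 21.6% (log2 ratio -0.29), cluster 2 had 33.3% and 25.8% (-0.37), cycling-like cells had 28.0% and 23.4% (-0.25), and cluster 4 had 32.4% and 22.2% (-0.55). The difference was thus smallest in cycling-like and largest in cluster 4 cells. Of the 80 members with at least 50 UMIs in every cluster, 50 were lower in all 5 clusters, 22 were higher in all 5 and 8 were mixed. Lower by at least 1.2-fold were 45 of 80 members in cluster 0 (25.8% of all genes), 43 of 82 in Th2-like cells (25.5%), 43 of 80 in cluster 2 (25.4%), 42 of 83 in cycling-like cells (19.6%) and 50 of 80 in cluster 4 (29.3%). Higher were 19, 23, 18, 23 and 16 members in the same order, beside 44.1%, 42.6%, 47.4%, 51.1% and 48.1% of all genes. Spearman's correlation with coding length was between 0.78 and 0.83 in the 5 clusters, over 80 to 83 members.

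Within each library, the cluster with the highest ribosomal protein share was cluster 2 and the one with the lowest was cluster 0. In cluster 2 the share stood above that of the other cells of the same library by a log2 ratio of 0.31 for WT hosts and 0.22 for MARCH1-/- hosts. Higher by at least 1.2-fold were 45 of 83 members in the WT-host library, where 24.4% of all genes were, and 33 of 83 in the other, where 28% were. Lower by as much were 2 members, beside 44.3% of all genes, and 4 members, beside 40.6%. In both libraries 68 members were higher and 7 were lower. Its cells had a median of 4080 UMIs from WT hosts and 6199 from MARCH1-/- hosts; those of cluster 0 had 5075 and 5361, and cycling-like cells had 11535 and 14857.

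Cluster 0 stood below the other cells by a log2 ratio of -0.19 for WT hosts and -0.32 for MARCH1-/- hosts. Lower by at least 1.2-fold were 29 members in the first, where 25.3% of all genes were, and 50 in the second, where 34.6% were. Higher was 1 member in each, Rpl7l1 and Rps15a, beside 35.8% and 36.2% of all genes. In both libraries 74 members were lower and 4 higher. The Th2-like cells lay nearer to the rest: 7 members were lower by at least 1.2-fold in each library, beside 24.6% and 31.7% of all genes, and 3 and 2 were higher, beside 27.5% and 26.5%. In cluster 4, 34 members were higher in the WT-host library, beside 26.4% of all genes, and 2 in the other, beside 26.7%; 3 and 4 were lower, beside 44% and 40.1%. Unlike the host ratios, these ratios between clusters had little relation to coding length: Spearman's correlation was between -0.26 and 0.17 over the 5 clusters and 2 libraries.

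**Figure D4:**
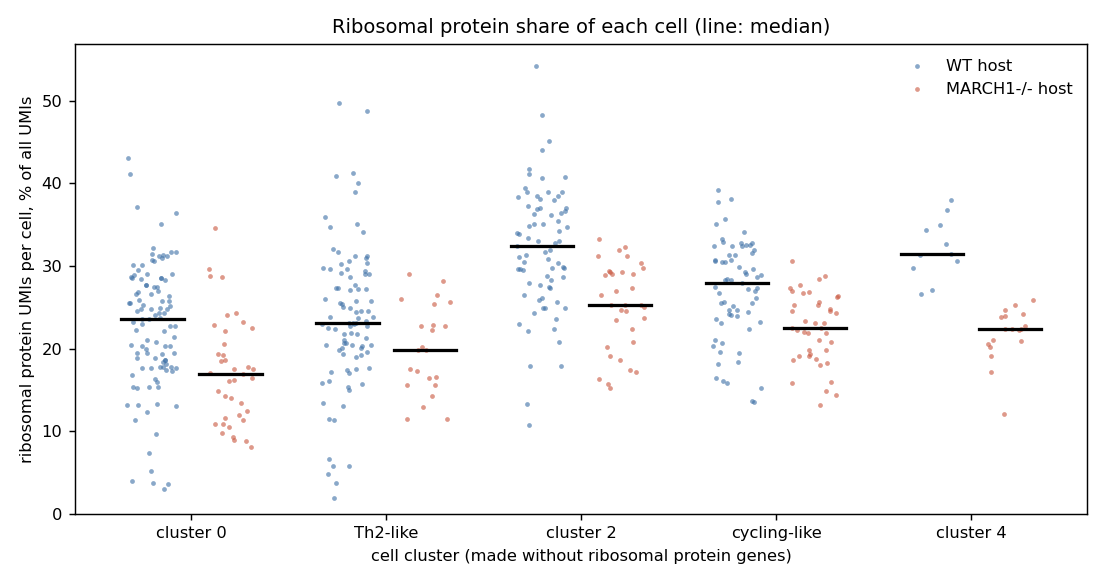
Ribosomal protein share of each cell's UMIs (percent, y axis) by cluster (x axis) and library (blue, WT host; red, MARCH1-/- host); points are cells and black lines are medians. Every red median is below the blue median of its cluster, cluster 2 is above cluster 0 in both colors, and the clouds of the 2 libraries overlap.

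Cycling-like cells, in which histone and mitotic genes lead, had a ribosomal protein share near that of the other cells. The log2 ratio was 0.02 (0.01 to 0.03) for WT hosts and 0.09 (0.08 to 0.10) for MARCH1-/- hosts, and the first changed sign when cycling cells were chosen by marker share (-0.04) or at a finer clustering (-0.03). In the WT-host library 11 members were higher by at least 1.2-fold, where 23.3% of all genes were, and in the other 14 were, where 28.4% were. Lower were 2 and 0 members, beside 39.7% and 36.1% of all genes. Rps2 was among those higher in both: it had 1470 CPM in cycling-like and 1018 CPM in other cells from WT hosts, and 5186 and 3711 CPM in those from MARCH1-/- hosts. Its log2 ratios were 0.53 and 0.48. Rpl22l1, the paralog of a gene needed for T cell development, had log2 ratios of 0.41 and 0.50. Rps27 was lower in cycling-like cells, with log2 ratios of -0.50 and -0.25.

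In cluster 2 Rps27 had 8175 CPM against 4556 CPM in the other cells from WT hosts and 2529 against 1595 CPM in those from MARCH1-/- hosts, log2 ratios of 0.84 and 0.66. Its paralog Rps27l, a gene induced by p53, went the other way there. It had 248 against 535 CPM and 225 against 423 CPM, log2 ratios of -1.11 and -0.91. In the Th2-like cells Rps27l was higher, with log2 ratios of 0.37 and 0.58. The order of the paralogs between clusters was thus the same in both libraries. In cluster 0 Rps2 had log2 ratios of -0.64 and -1.01 and Rpsa -0.52 and -0.72, while Rps15a was above the other cells at 0.20 and 0.27. Rpl7l1, named for its likeness to Rpl7, was lower in cluster 2 (log2 ratios -1.30 and -1.44), from only 5 and 6 UMIs in that cluster.

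**Figure D5:**
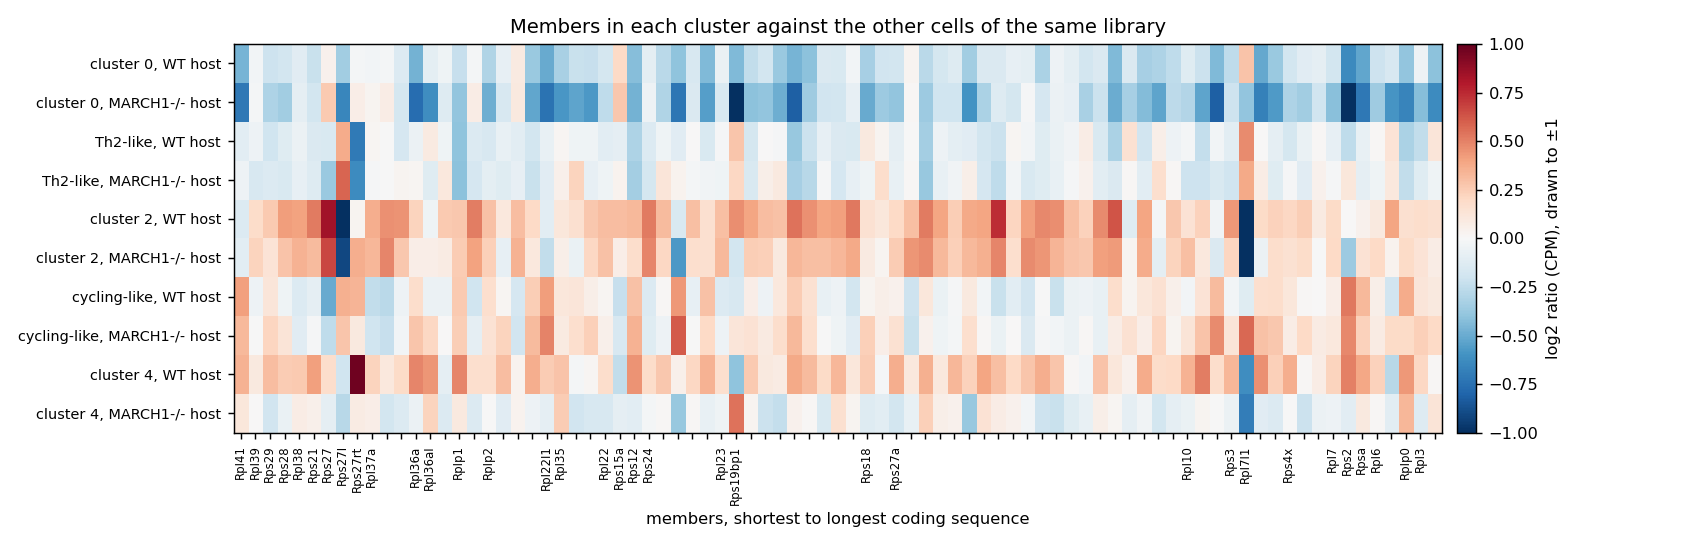
Log2 ratio of each member's CPM in a cluster over the other cells of the same library (color, drawn to -1 and 1), with 83 members from shortest to longest coding sequence on the x axis, some symbols printed, and the 5 clusters of the 2 libraries on the y axis. Both rows of cluster 2 are mostly red and both of cluster 0 mostly blue; the rows of cluster 4 differ, and Rps27, Rps27l, Rpl7l1 and Rps2 depart from their rows.

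Paralog pairs differed in level and, in some cases, in direction. Rpl22 had 2732 CPM in the WT-host and 1719 CPM in the MARCH1-/- host library (log2 ratio -0.67), and Rpl22l1 had 1093 and 779 CPM (log2 ratio -0.49). Rpl36a had 1977 and 1007 CPM (log2 ratio -0.97), and Rpl36al had 1336 and 1028 CPM (log2 ratio -0.38). Both members of these pairs were lower in the MARCH1-/- host library. Rps27l had 497 and 397 CPM (log2 ratio -0.32), a smaller difference than that of Rps27. Rpl7 had 1123 and 2191 CPM (log2 ratio 0.96) and Rpl7l1 33.1 and 71.1 CPM (log2 ratio 1.10, or 0.64 when thinned), so this long pair was higher together. Rpl39, at the peptide tunnel, had 7413 and 3358 CPM (log2 ratio -1.14). Its paralog Rpl39l, known from the testis, had under 50 UMIs and was not among the 83 genes compared. It had 21 UMIs in the WT-host library, in 1.14% of the cells, and 0 in the other. With the other set at a floor of 3 counts, Rpl39l was 4.29-fold higher in the WT-host library. The lower bound of its counting interval was 3.19-fold. That interval treats the 21 UMIs as independent, although they came from so few cells, so it is too narrow as a measure of certainty. The X-linked Rps4x had 1615 and 3060 CPM (log2 ratio 0.92). Rps19bp1 had 71.2 and 37.4 CPM (log2 ratio -0.93, -1.38 to -0.50).

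Other members with many UMIs followed their length class. Rpl37a had 7055 and 3203 CPM, a log2 ratio of -1.14. Rpl23 had 6074 and 4221 CPM, a log2 ratio of -0.53. Both are short large subunit genes and both were lower. Rps24 had 6030 and 4733 CPM (log2 ratio -0.35), and Rps12 had 5767 and 4827 CPM (log2 ratio -0.26), which is within 1.2-fold.

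Sequence shared with other genes touches several of these values. Of the 86 members, 11 share at least 20% of the 50-base stretches in their last 300 transcript bases with another gene of the table, and 69 share none. The treatment of reads that fit several genes was not stated by the submitters' labels. Rpl35 shares 96.0% with Gm2000, and the pair summed had a log2 ratio of -2.22. Rpl10 shares 100% with Rpl10-ps3, and the pair summed had -1.07. Rpl41 shares 61.5% with Gm10076, which itself went from 14009 UMIs (WT hosts) to 1382 (MARCH1-/- hosts); summed, the pair had -1.33. Rps18 shares 68.1% with Gm11361, and the pair summed had 1.14. The direction of these 4 members was the same alone and summed. For Rpl35, Rpl10 and Rps18 the partner had too few UMIs to change it. Gm2000 had 50 and 115 UMIs (WT and MARCH1-/- hosts), Rpl10-ps3 65 and 106, and Gm11361 15 and 86. Rps27rt did change direction, from 2.28 alone to -1.47 summed with Rps27.

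Members varied among cells by more than sampling would give. Within the ribosomal protein UMIs of a cell, the ratio of observed to binomial variance had a median over members of 1.66 for WT hosts and 1.62 for MARCH1-/- hosts, and ranged from 0.928 to 4.83 and from 1.01 to 5.65. Rps27 was high in both, at 4.83 and 3.09, and so was Rpsa, at 3.57 and 4.11. Rps2 was at 1.97 in the WT-host library, from 3007 UMIs in 352 cells, and 5.65 in the other, from 6863 UMIs in 156 cells. At equal relative variation this variance ratio rises with the counts per cell. It therefore does not rank genes or libraries of unlike counts by their variation. Rps15a was at 3.51 and 3.56. Rpl10, Rpl7 and Rps3 lay near the sampling level, with values from 1.01 to 1.33, and so did Rps27rt at its low counts. Over cells, large and small subunit shares correlated at 0.97 and 0.96 (Pearson, 352 and 156 cells, sharing each cell's depth).

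Other genes of the translation machinery had higher medians than the members. In a list of 25 elongation factors and other TOP mRNAs, 18 genes were higher and 5 lower by at least 1.2-fold, and the median log2 ratio was 0.56, beside 0.25 for all genes. Here and in the lists below the counts stand beside 49.1% of all genes higher and 18% lower, and a share near these is no result about a list. The elongation factor Eef1a1 had 3611 and 5112 CPM in the WT-host and MARCH1-/- host libraries (log2 ratio 0.50), and Tpt1, which encodes the translationally controlled tumour protein, had 4779 and 7056 CPM (log2 ratio 0.56). Both were higher in the MARCH1-/- host library. Fau, whose product carries a ribosomal protein fused to a ubiquitin-like protein, was lower, with 6999 and 4244 CPM (log2 ratio -0.72). Fau has 399 coding bases, in the range of the short members.

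Of 23 initiation factors, 13 were higher and 6 lower by at least 1.2-fold (median log2 ratio 0.28). Eif1, a factor of start codon choice, had 1755 and 1125 CPM in the WT-host and MARCH1-/- host libraries (log2 ratio -0.64), while Eif5a, which helps stalled ribosomes go on, had 379 and 796 CPM (log2 ratio 1.07). Of 35 genes compared for ribosome assembly and rRNA synthesis, 19 were higher and 5 lower (median 0.29). Among them the nucleolar gene Ncl had 959 and 909 CPM (log2 ratio -0.08), within 1.2-fold. Of 15 genes compared in the mTOR arm that controls TOP mRNAs, 9 were higher and 3 lower (median 0.30). Ddit4, an inhibitor of mTOR complex signalling, had 69.2 and 129 CPM (log2 ratio 0.90). Of 20 tRNA ligases, 8 were higher and 5 lower (median 0.10); Nars, the ligase for asparagine, had 270 and 99.6 CPM (log2 ratio -1.44). The first 3 medians lie near the 0.25 of all genes. After thinning, that of initiation factors was -0.000508; with the transcript-length trend of other genes removed, that of assembly genes was -0.02 and that of tRNA ligases -0.11.

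Over the 10 sums of cluster and library with at least 10 cells, the genes outside the family whose level on a scale without ribosomal protein UMIs was most like the ribosomal protein share were Rbm27 (Pearson's correlation 0.98), Atp5h (0.94), Tmsb10 (0.92), Wdr89 (0.91), Tomm6 (0.91), Aqr (0.91), Pdcd11 (0.89), Snhg8 (0.89), Fau (0.88) and Cox6b1 (0.88), out of 2816 genes. Each was lower in the MARCH1-/- host library, from a log2 ratio of -0.20 for Atp5h to -2.05 for Wdr89, and Wdr89 shares sequence with Rplp2. The points share libraries, so these likenesses hold the host difference as well as that between clusters.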

How the data were processed

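Per the file headers and labels, the deposited files hold raw UMI counts per gene and barcode for all barcodes, made by the authors with Cell Ranger (version 3.1.0 per the submitters' processing notes, version 4 per the file headers) on mm10; the annotation and aligner settings are not given in the sources used. Barcodes with 500 or more UMIs, 250 or more genes and a mitochondrial share of 10% or less were cells, doublets included. UMIs were summed per library and scaled to CPM. Clusters came from scanpy 1.11.5 and leidenalg 0.10.2 (resolution 0.5, 2000 variable genes without members, 20 components, 15 neighbours). Naming a cluster took at least 3 markers of 1 class, and at most 1 of another, among its 10 leading genes. Intervals are exact (Poisson, Clopper-Pearson or conditional binomial, 95%; normal approximation for the ratio of subunits), treat UMIs as independent, and were tested on simulated data. Depth was 2571048 UMIs in cells from WT hosts and 1575581 in cells from MARCH1-/- hosts. Lengths and 3' sequences came from GENCODE M21, matched by gene ID; promoter windows came from RefSeq (GRCm38.p6). Sums and intervals used numpy 2.4.6, pandas 2.3.3 and scipy 1.17.1 in Python 3.11.15.

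The members, lists, markers, the 1.2-fold threshold and the rule for named genes were chosen with earlier results of these data known. Named were the 5 members of each subunit with the most UMIs, the stalk genes, Rpsa, Rps27a, paralog pairs, the 6 highest and 6 lowest against the members' sum, the 4 most and 4 least variable, the 10 most alike other genes, and up to 4 genes of each list by UMIs. Rpl6, Rps19bp1 and the ratios most changed between clusters were otherwise chosen after their values were seen, as were the length relation (transcript length was tried first), the 450-base division and the sharing of 3' sequence. Alternatives covered cell filters, doublets, weighting, thinning, denominator, membership, low counts, states, length and shared sequence. Some genes that this rule names are not reported here.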

Additional observations from a re-analysis of the deposited data

Results flagged for a closer look

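Cluster 4 was the cell state whose ribosomal protein share went opposite ways in the 2 libraries. Against the other cells of the same library its log2 ratio was 0.23 in the WT-host library, from 11 cells, and -0.0321 in the MARCH1-/- host library, from 18 cells. Of the 83 members, 45 had opposite signs in the 2 libraries in this cluster, 30 were higher in both and 8 lower in both. This difference was not tested, since each library is a single sample.

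Outside the members, 5 ribosomal protein symbols with -ps, which the choice of members leaves out, summed to 233.6 CPM in the MARCH1-/- host library and 98.0 CPM in the WT-host library (368 and 252 UMIs). These are annotated copies whose sequence is close to that of members, such as Rpl10-ps3, Rpl9-ps6 and Rpl36a-ps1.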

How the results depend on the processing

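The log2 ratio of the ribosomal protein share stayed negative in every alternative run; it moved by more than its counting interval to -0.28 with no mitochondrial limit, -0.31 without Scrublet doublets (16 and 5 cells), -0.32 thinned to 1000 UMIs, -0.39 with ribosomal protein and mitochondrial UMIs out of the denominator, -0.33 without cycling-like cells and -0.26 without the 11 members of shared sequence. The share was not computed with either length trend removed, so its dependence on the length relation was not tested. The same holds for the large to small subunit difference. That difference moved to -0.0622 with equal cell weights, -0.0484 thinned, -0.0649 without cycling-like cells and -0.0516 without shared members. On each scale, counts of members past 1.2-fold stayed within 1.5 times in the alternatives run; the total and the ribosomal protein sum as scale gave 43 and 25 lower members. The TOP list median moved to 0.36 with either length trend removed. Initiation factors had -0.000508 thinned and 0.0148 with the coding-length trend removed; assembly genes had -0.0215 with the transcript-length trend removed; tRNA ligases had -0.17 and -0.11 with the coding and transcript trends removed. The log2 ratio of cycling-like over other cells in the WT-host library was 0.0112 at a 5% mitochondrial limit, 0.00702 without doublets, 0.0656 with equal weights, 0.0470 thinned, 0.0271 with the other denominator, -0.0428 for cells with at least 1% of UMIs in cycling markers and -0.0286 at resolution 1. In the MARCH1-/- host library it was 0.12 at the 5% limit, 0.0824 without doublets, 0.12 thinned, 0.12 with the other denominator and 0.0808 by the 1% rule. Of 330 values for named genes, 4 changed sign from a main ratio of at least 1.2-fold, all with the transcript-length trend removed. These were Rplp1 (0.33), Rpl22l1 (0.16), Rps27l (0.33) and Rpl36al (0.27). Sign changes of genes whose main ratio lay within 1.2-fold were not counted. The length and shared-sequence alternatives were chosen after seeing the data, and the cause of these shifts was not tested. No paired analysis was possible because each group has 1 library. Genes near 50 UMIs can pass 1.2-fold by counting error alone.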
